A study of Mus musculus with 10 samples.

Results

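The IL-6 family genes described here are 3 cytokines (Il6, Lif and Il11), 4 receptor subunits (Il6ra, Il6st, Lifr and Osmr), the transcription factor gene Stat3 and its feedback inhibitor Socs3. They were taken from the count table by symbol, with earlier results of these data known, and are 9 of its 25229 rows. All 9 were among the 14251 genes that passed the filter on low counts. The libraries were made from adipose tissue stem and precursor cells (ASPCs) of WT mice, sorted as CD45-CD31-Pdgfra+ cells from the stromovascular fraction of perigonadal white adipose tissue and grown to confluence without passaging. Cultures received 100 nM FICZ, a ligand of the aryl hydrocarbon receptor (AHR), or its vehicle DMSO, and were lysed 6 hr later. There were 5 DMSO and 5 FICZ libraries, numbered 1 to 5 in each group. The labels do not say whether the libraries of a group came from separate mice or cultures, so p-values measure only the spread between these libraries, which may be technical. The question addressed was whether FICZ changed the RNA of these genes.

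Cytokines of the IL-6 family signal through gp130, the receptor subunit encoded by Il6st. IL-6 and IL-11 first bind their own receptors (Il6ra, Il11ra1), LIF assembles gp130 with the LIF receptor (Lifr), and oncostatin M assembles it with the OSM receptor (Osmr). Janus kinases on the assembled receptor phosphorylate STAT3, which enters the nucleus and raises transcription of target genes, among them Socs3, whose product binds gp130 and shuts the signal down. In adipose tissue, stromal cells are a known source of IL-6, and some gp130 cytokines are known to restrain adipocyte differentiation.

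Total counts ranged from 38328611 to 50210111 per library in DMSO and from 40272024 to 47670865 in FICZ. Values are given as CPM, counts brought to a common library size with edgeR's TMM factors. Of 4 AHR target genes used as a check of treatment, 3 had an adjusted p of at most 0.05 in edgeR's test, 2 with the replicate number as a block, where Tiparp had an adjusted p of 0.0509, and none without both libraries numbered 5. The log2 fold changes of the 4 ranged from 0.62 for Cyp1b1 to 3.25 for Cyp1a1. The 8 marker genes of ASPCs were all counted, with summed levels of 6130 to 8522 CPM in DMSO and 5625 to 7907 CPM in FICZ. Summed markers of leukocytes lay between 23.5 and 48.4 CPM in DMSO and between 23.0 and 35.6 CPM in FICZ, and all 8 were counted in every library. Markers of endothelial cells summed to 64.2 to 86.6 CPM in DMSO and 69.0 to 83.7 CPM in FICZ, with all 4 counted. Most of that sum was Tek, with means of 64.5 CPM in DMSO and 65.5 CPM in FICZ. The means were 1.48 and 1.01 CPM for Pecam1, 4.45 and 3.44 CPM for Cdh5, and 6.65 and 5.84 CPM for Kdr. Of 4 mature adipocyte markers Lep had no count, and the list summed to 5.85 to 20.2 CPM in DMSO and 3.84 to 20.9 CPM in FICZ. All 16 hepatocyte markers were counted in every library, and their sum was 9879 CPM in DMSO 5, against 1438 to 4030 CPM in the other 9 libraries. The part of these cells in the results below was not tested. For those of the 9 genes whose log2 fold change turned sign without DMSO 5, it is given with and without that library. In bulk RNA, fewer cells of a type and less RNA per cell cannot be told apart.

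None of the 9 genes passed the threshold of an adjusted p of 0.05 with edgeR's quasi-likelihood test, where 0.0211% of all genes tested did. The log2 fold changes, FICZ over DMSO, ran from -0.14 for Il6ra to 0.26 for Lif, with 6 genes above 0 and 3 below and a median of 0.07, beside a median of 0.01 over all genes tested. The adjusted p was 0.999 for each of the 9. Before adjustment, 0 of the 9 had a p of at most 0.05, beside 4.82% of all genes. With the replicate number as a block, 0 of the 9 passed the adjusted threshold, beside 0.0561% of all genes, and before adjustment 1 of the 9, Lif, had a p of at most 0.05, beside 4.65%. DESeq2 placed 0 of the 9 past the threshold, with or without the block. For all 9 genes the FICZ and DMSO libraries overlapped, and the groups did not overlap for 0.47% of all genes.

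Levels can be compared between genes only per length, and were taken as CPM per kb of GENCODE exon, over all 10 libraries. Il6st, Stat3 and Osmr stood at the top, and Il11 and Il6 at the bottom. Il6st, the shared signalling subunit, had the highest level at 49.2 ± 5.53 CPM per kb (SD, n = 10 libraries) and lay above Stat3 in all 10. Stat3 followed at 22.0 ± 2.14 CPM per kb and lay above Osmr, at 17.9 ± 2.33 CPM per kb, in all 10 libraries, although the ranges of the 2 genes overlapped. In CPM the mean of Osmr was the higher, at 217 against 210 for Stat3. Their order thus rests on the GENCODE exon lengths, 12113 bases for Osmr and 9527 for Stat3. Socs3 had 10.2 ± 2.26 CPM per kb and exceeded Lifr in 9 of 10 libraries. In CPM the mean of Lifr was the higher, at 50.1 against 29.4 for Socs3. This order too rests on the exon lengths, 2891 bases for Socs3 and 10776 for Lifr. Lifr, at 4.65 ± 0.828 CPM per kb, lay above Il6ra in all 10 libraries with no overlap. Il6ra at 2.60 ± 0.173 CPM per kb and Lif at 2.58 ± 0.805 CPM per kb could not be ordered, since Il6ra was the higher in 5 of 10 libraries. In CPM the mean of Il6ra was the higher, at 22.5 against 11.2 for Lif, with exon lengths of 8642 and 4350 bases. Il11 had 1.98 ± 1.04 CPM per kb and lay below Lif in 9 of 10 libraries. Il6 itself was lowest, at 0.557 ± 0.128 CPM per kb, and lay below Il11 in 9 of 10. The subunit that is particular to IL-6 thus lay below those for LIF and oncostatin M in every library.

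**Figure D1:**
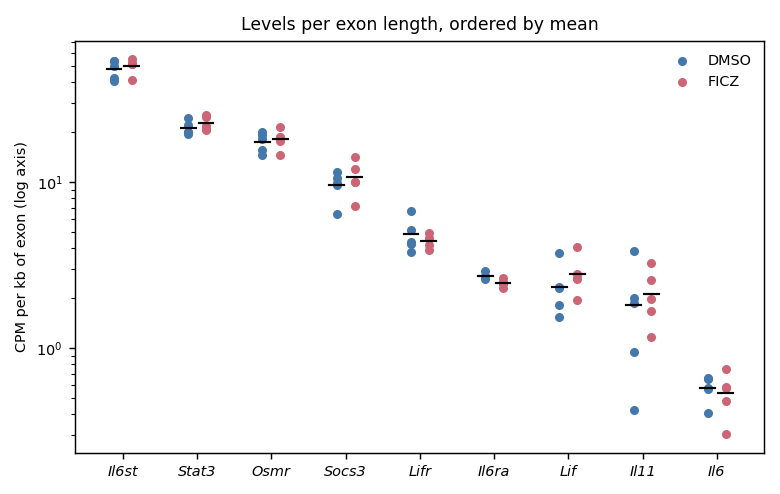
Level of each of the 9 genes in CPM per kb of exon (log axis), with 1 point per library, DMSO in blue and FICZ in red, and a bar at the mean of each group. Il6st lies highest, with a mean of 49.2 CPM per kb over 10 libraries, and Il6 lowest, with 0.557, and in each gene the DMSO and FICZ points overlap.

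Il6 encodes interleukin 6, a secreted cytokine, and lies on the plus strand of chromosome 5 (30013114 to 30019981, GRCm38). It had 0.997, 1.39, 1.58, 1.41 and 1.60 CPM in DMSO 1 to 5 and 1.43, 1.40, 1.82, 1.17 and 0.739 CPM in FICZ 1 to 5. The groups overlapped throughout, and FICZ was higher in pairs 1 to 3 and lower in pairs 4 and 5. These levels rest on 32 to 78 counts, and the 32 counts in FICZ 5 have an exact 95% Poisson interval of 21.9 to 45.2, which covers counting error only. The log2 fold change was -0.09 (standard error 0.25, 95% interval -0.63 to 0.45), so that changes from 0.648-fold to 1.36-fold lie within the interval. FICZ 5 decided the sign, and without that library the log2 fold change was 0.05. A permutation test, exact and two-sided, of the libraries' log2 CPM gave p = 0.643, where 5 against 5 allows no p below 0.00794.

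Lif encodes leukemia inhibitory factor and lies on the plus strand of chromosome 11 (4257557 to 4272514). It had 10.0, 10.1, 16.2, 7.88 and 6.75 CPM in DMSO 1 to 5 and 11.3, 11.5, 17.8, 12.2 and 8.48 CPM in FICZ 1 to 5. Each FICZ library lay above the DMSO library of the same number, while the groups as such overlapped widely. The differences within pairs were 0.17, 0.18, 0.13, 0.63 and 0.33 on the log2 scale. Across the table, 4.32% of genes were higher in all 5 pairs, and Lif and Stat3 were the 2 of the 9 genes that were. Without a block the log2 fold change was 0.26 (standard error 0.24, 95% interval -0.27 to 0.80), and with the replicate block 0.29 (standard error 0.10, 95% interval 0.06 to 0.52). The blocked fit gave an unadjusted p of 0.0204 and an adjusted p of 0.929 from edgeR's quasi-likelihood test. The exact permutation test gave p = 0.317, and the exact sign-flip test of the 5 pair differences gave p = 0.0625, the smallest it can give.

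Il11 encodes interleukin 11 and lies on the minus strand of chromosome 7 (4772373 to 4782859). It had 4.20, 3.92, 7.99, 1.98 and 0.883 CPM in DMSO 1 to 5 and 4.12, 5.39, 6.76, 3.48 and 2.43 CPM in FICZ 1 to 5. Il11 varied more between libraries of a group than any other of the 9 genes. From lowest to highest the range was 8.66-fold in DMSO and 2.75-fold in FICZ, taken from log2 CPM with a prior count of 2. This prior makes the folds smaller than the ratios of the CPM values above. DMSO 5 held the lowest value, on 43 counts (exact 95% Poisson interval 31.1 to 57.9). FICZ was lower in pairs 1 and 3, by -0.03 and -0.24 on the log2 scale, and higher in pairs 2, 4 and 5, by 0.46, 0.80 and 1.41. The log2 fold change was 0.23 (standard error 0.48, 95% interval -0.82 to 1.27), or 0.566-fold to 2.42-fold, and the exact permutation test gave p = 0.444. With the replicate block it was 0.45 (standard error 0.24, 95% interval -0.12 to 1.03; adjusted p = 0.929 from edgeR). The sign rested on DMSO 5, without which the log2 fold change was -0.03.

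The promoters of the 3 cytokine genes are shown because each holds a TGACTCA or its reverse complement TGAGTCA, the site bound by AP-1, in the 250 bases before a RefSeq start, which was found in none of the other 6 genes. The motif was searched on both strands and was chosen after the sequences were seen. It occurs in 4.46% of the 32851 RefSeq promoters of the same length. The sequences are from RefSeq (GRCm38.p6), 5′ to 3′ on the strand of the gene, with motif letters in capitals. The sequence of Lif was trimmed before the first GENCODE exon, and the Il11 sequence precedes the inner of 2 starts and lies in an intron of the longer transcripts.
Il6 (chr5:30012864-30013113, plus strand): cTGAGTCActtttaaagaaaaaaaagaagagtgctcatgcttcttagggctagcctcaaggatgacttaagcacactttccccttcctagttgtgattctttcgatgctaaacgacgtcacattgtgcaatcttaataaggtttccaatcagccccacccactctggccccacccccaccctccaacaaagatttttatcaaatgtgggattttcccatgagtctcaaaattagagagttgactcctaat
Lif (chr11:4257318-4257556, plus strand): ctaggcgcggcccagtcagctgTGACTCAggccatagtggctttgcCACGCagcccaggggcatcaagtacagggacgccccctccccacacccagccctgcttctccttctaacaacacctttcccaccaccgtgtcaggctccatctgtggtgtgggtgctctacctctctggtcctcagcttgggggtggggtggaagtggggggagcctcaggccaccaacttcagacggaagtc
Il11 (chr7:4778142-4778391, minus strand): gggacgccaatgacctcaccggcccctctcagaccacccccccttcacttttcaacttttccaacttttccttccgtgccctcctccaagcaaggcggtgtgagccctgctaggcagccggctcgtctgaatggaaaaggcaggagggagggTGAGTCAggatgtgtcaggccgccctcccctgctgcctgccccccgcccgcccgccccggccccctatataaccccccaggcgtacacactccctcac
The motif begins 249 bases before the start in Il6, 228 in Lif and 98 in Il11. Lif also holds CACGC, the reverse complement of GCGTG, the core of the AHR response element, 204 bases before the start. That core occurs in 28.2% of RefSeq promoters and is also 1 form of the core bound by hypoxia-inducible factors, and Cyp1a1 holds it 54 bases before its start. Among the other members it was found before 1 of the starts of Lifr, as ctccgactCACGCgcggcctc (chr15:7129406-7129426, plus strand). A match describes the letters of the window and not a bound site.

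Il6ra encodes the subunit that binds IL-6 and lies on the minus strand of chromosome 3 (89864059 to 89913196), where 242 of its 8642 exonic bases are overlapped by Gm42809 on the opposite strand. It had 23.6, 23.2, 23.3, 25.1 and 22.6 CPM in DMSO 1 to 5 and 21.1, 20.0, 23.0, 21.3 and 21.6 CPM in FICZ 1 to 5. All FICZ libraries but FICZ 3 lay below every DMSO library, and FICZ 3 lay above DMSO 5 alone. Il6ra was the 1 gene of the 9 that was lower in all 5 pairs, as were 2.81% of all genes, by -0.02 to -0.24 on the log2 scale. The means (SD, n = 5 libraries each) were 23.6 ± 0.941 CPM with vehicle and 21.4 ± 1.09 CPM with FICZ. The exact permutation test, which was run for each of the 9 genes, gave p = 0.0159 here and above 0.05 for the other 8. Over all genes tested the adjusted p of Il6ra from edgeR was 0.999. The exact sign-flip test of the 5 pairs gave p = 0.0625, the smallest it can give. The log2 fold change was -0.14 (standard error 0.07, 95% interval -0.29 to 0.01), so that a decrease beyond 0.816-fold lies outside the interval.

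Il6st, on the plus strand of chromosome 13 (112464070 to 112510086), had 468, 594, 555, 595 and 453 CPM in DMSO 1 to 5 and 458, 569, 580, 609 and 576 CPM in FICZ 1 to 5. The values fell into the same range in both groups, with DMSO 1, DMSO 5 and FICZ 1 as the 3 lowest libraries. Its log2 fold change was 0.07 (standard error 0.11, 95% interval -0.17 to 0.31), and exact permutation gave p = 0.540. As a fold, the interval runs from 0.888 to 1.24.

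Lifr, the signalling subunit for LIF on the plus strand of chromosome 15 (7090614 to 7197489), had 40.7, 47.4, 45.8, 55.4 and 71.8 CPM in DMSO 1 to 5 and 42.0, 45.2, 49.9, 49.1 and 53.4 CPM in FICZ 1 to 5. The highest value was in DMSO 5, the library with the highest sum of hepatocyte markers. The lowest was in DMSO 1, where that sum was 4030 CPM, above that of every library but DMSO 5. Among the FICZ libraries Lifr was highest in FICZ 5, where the sum was 1941 CPM. A relation of Lifr to these markers was not tested. With all libraries the log2 fold change was -0.12 (standard error 0.14, 95% interval -0.43 to 0.18), and without DMSO 5 it was 0.02. The exact permutation test gave p = 0.579.

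Osmr, the subunit that pairs with gp130 for oncostatin M, lies on the minus strand of chromosome 15 (6813577 to 6874969). It had 176, 189, 221, 233 and 243 CPM in DMSO 1 to 5 and 178, 214, 226, 262 and 228 CPM in FICZ 1 to 5. Libraries with the same number lay close together, and FICZ was higher in pairs 1 to 4 and lower in pair 5. Its log2 fold change was 0.06 (standard error 0.12, 95% interval -0.20 to 0.32; exact permutation p = 0.659).

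Stat3, on the minus strand of chromosome 11 (100885098 to 100939540), shares 72 of its 9527 exonic bases with Stat5a on the opposite strand. It had 192, 191, 187, 233 and 211 CPM in DMSO 1 to 5 and 199, 207, 197, 242 and 237 CPM in FICZ 1 to 5. As with Lif, each FICZ library exceeded the DMSO library of its number, here by 0.05, 0.12, 0.08, 0.06 and 0.17 on the log2 scale. Between groups the log2 fold change was 0.09 (standard error 0.09, 95% interval -0.11 to 0.29), or 0.929-fold to 1.23-fold, and the exact permutation test gave p = 0.278. The counts measure Stat3 RNA and not the phosphorylation by which STAT3 is activated.

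Socs3, the feedback inhibitor of gp130 signalling, lies on the minus strand of chromosome 11 (117966079 to 117970047). It had 30.6, 27.6, 28.6, 33.5 and 18.5 CPM in DMSO 1 to 5 and 29.0, 29.2, 20.8, 41.2 and 34.9 CPM in FICZ 1 to 5. The numbers did not move together: FICZ was lower in pairs 1 and 3 and higher in pairs 2, 4 and 5, with differences from -0.46 in pair 3 to 0.91 in pair 5. FICZ over DMSO, the log2 fold change was 0.16 (standard error 0.19, 95% interval -0.25 to 0.57; exact permutation p = 0.492), and without both libraries numbered 5 it was -0.0076. The region before its RefSeq start is shown because Socs3 was the only one of the 9 genes with a STAT motif, TTCNNNGAA, which reads the same on both strands, in that window. It is printed 5′ to 3′ with the motif in capitals, from RefSeq (GRCm38.p6), and was trimmed to end before a GENCODE exon of a further Socs3 transcript. The stretch lies inside the GENCODE bounds of the gene, downstream of its outer end at 117970047.
Socs3 (chr11:117969452-117969616, minus strand): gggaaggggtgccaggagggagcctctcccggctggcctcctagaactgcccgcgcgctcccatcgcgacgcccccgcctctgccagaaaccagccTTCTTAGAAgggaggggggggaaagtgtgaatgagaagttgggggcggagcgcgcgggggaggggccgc
The motif begins 154 bases before the RefSeq start, and 7.02% of RefSeq promoters hold it in the same window.

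**Figure D2:**
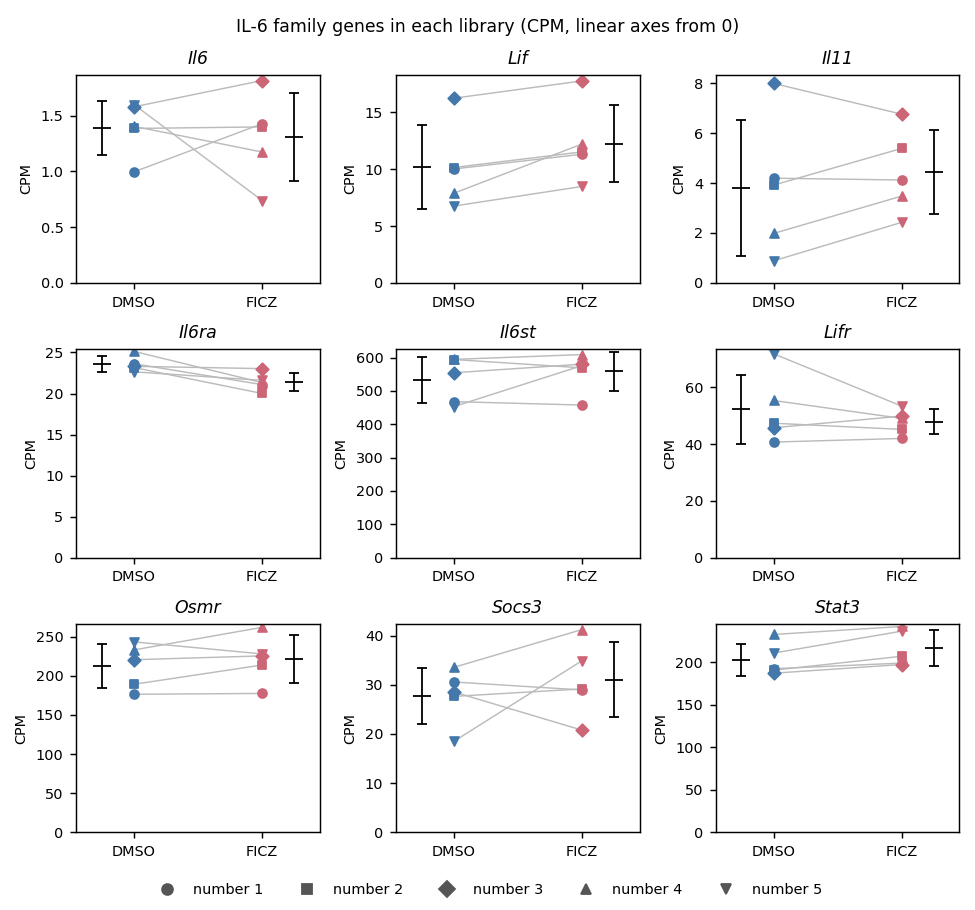
CPM of each gene in every library (linear axes from 0), with a marker shape for each replicate number, grey lines joining libraries of the same number, and black bars for the mean and SD of each group (n = 5). The lines rise in all 5 pairs for Lif and Stat3 and fall in all 5 for Il6ra, and the groups overlap in each panel.

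**Figure D3:**
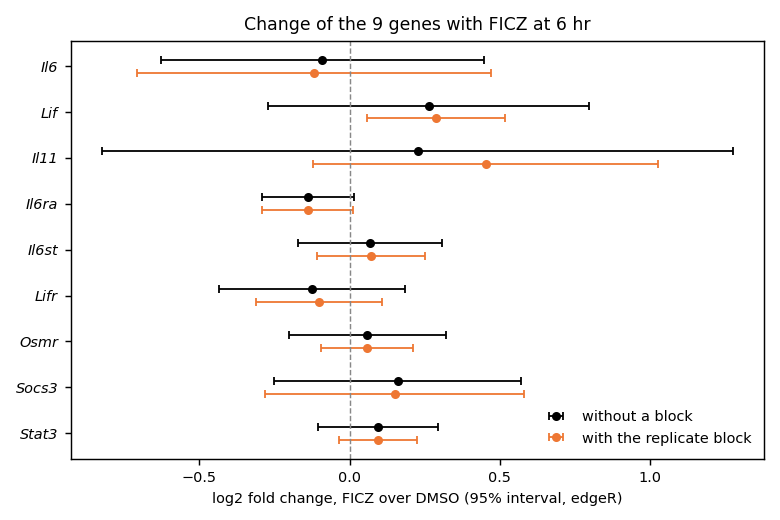
Log2 fold change, FICZ over DMSO, of the 9 genes with 95% intervals from edgeR, without a block in black and with the replicate block in orange. The interval of Il11 is the widest without a block, from -0.82 to 1.27, and the blocked interval of Lif, from 0.06 to 0.52, is the 1 interval that lies wholly to one side of 0.

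More of the spread of most of these genes lay between replicate numbers than between FICZ and DMSO. The replicate number has more levels than the treatment, so on average it holds the larger share even of a spread due to neither. This ordering alone therefore shows no effect of the number, and the shares are read beside the medians over all genes. Of the sum of squares of log2 CPM over the 10 libraries, the replicate number held 89.5% for Osmr, 84.3% for Stat3, 82.9% for Lif, 80.6% for Il11, 76.3% for Lifr and 74.8% for Il6st, beside a median of 58.1% over all genes tested. FICZ or DMSO held 12.9% for Stat3 and 12.2% for Lif, and 2.56% for Osmr, beside a median of 4.35%. Il6 and Socs3 lay below the median of 58.1%, with 36.9% and 44.4% between numbers and 60.0% and 50.1% in neither. Il6ra was the 1 gene with its largest share, 58.8%, between FICZ and DMSO. Its libraries differed by no more than 1.15-fold within a group, the narrowest range of the 9 genes. Stat3 was highest in number 4 and lowest in number 3 in both groups.

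**Figure D4:**
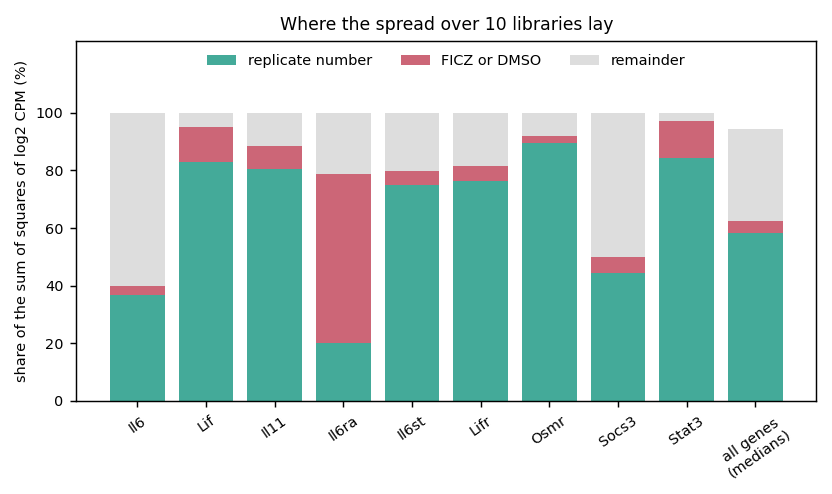
Share of the sum of squares of log2 CPM over the 10 libraries (%) that lay between replicate numbers (green), between FICZ and DMSO (red) and in neither (grey), for each gene. The last bar stacks the medians over all genes tested, which need not sum to 100. The number held 89.5% for Osmr and 20.0% for Il6ra. It has more levels than the treatment, so on average it holds the larger share even of a spread due to neither.

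Lif and Il11 were both highest in number 3 and lowest in number 5, in DMSO and in FICZ alike. Their log2 CPM, centred on each group's mean, had a Pearson r of 0.904 and a Spearman rho of 0.952 over the 10 libraries, the highest of the 36 pairs of these genes. Without DMSO 3 and FICZ 3, the libraries farthest out in Lif, r was 0.894 over 8 libraries. DMSO 5 and FICZ 5, the lowest of their groups in both genes, were kept, and how far r rests on them was not tested. Lifr and Osmr, neighbouring genes on chromosome 15, had an r of 0.744, and Osmr and Stat3 one of 0.679. Il11 ran against Lifr (r = -0.803) and against Stat3 (r = -0.692), and Il6 against Socs3 (r = -0.625). DMSO 5 held the lowest Il11 (0.883 CPM), the highest Lifr (71.8 CPM) and the lowest Socs3 (18.5 CPM) of the 10 libraries. How far these negative values rest on that library was not tested. These values are descriptions over points that share libraries, depth and replicate numbers.

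The other 44 genes of the pathway gave no call in either direction: 36 passed the filter on low counts, 21 were above 0 and 15 below, with a median log2 fold change of 0.03. Before adjustment, 1 of the 36 had a p of at most 0.05, Jak1, or 2.78%, and in the blocked fit 2 of the 36 had, or 5.56%, near the 4.82% and 4.65% of all genes tested. Among the other ligands, Osm and Il31 had no count in any library, which, with a floor of 3 counts, allows up to 0.0787 CPM in the shallowest library. The receptor subunit of oncostatin M was thus expressed while the RNA of its ligand was not detected at this depth. For Clcf1 the means (SD, n = 5 libraries each) were 19.5 ± 9.24 CPM with vehicle and 19.6 ± 5.40 CPM with FICZ. Il11ra1, the receptor of IL-11, had 89.1 ± 13.7 and 91.5 ± 5.48 CPM, but 46.3% of the 50-base words of its transcripts also occur in those of other genes, chiefly Gm13305 and Il11ra2, so its count is uncertain.

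Jak1, the Janus kinase on which gp130 signalling chiefly depends, lies on the minus strand of chromosome 4 (101152367 to 101265282). It had 541, 604, 549, 640 and 610 CPM in DMSO 1 to 5 and 643, 686, 640, 729 and 796 CPM in FICZ 1 to 5. The groups touched without overlapping, with DMSO 4 at 640.02 and FICZ 3 at 640.16 CPM. Its log2 fold change was 0.25 (standard error 0.09, 95% interval 0.05 to 0.44), and without both libraries numbered 5 it was 0.20. The unadjusted p was 0.0163, and 0.00465 with the replicate block, while edgeR's adjusted p was 0.999, or 0.761 in the blocked fit. The exact permutation test gave p = 0.00794, the smallest that 5 against 5 allows. Jak1 was named by a rule that picks low p-values and groups that do not overlap, so this p restates the choice. The groups did not overlap for 0.47% of all genes. For Jak2 the means were 152 ± 21.7 CPM with vehicle and 160 ± 18.0 CPM with FICZ. The 15 inhibitors and phosphatases that passed the filter, 8 above 0 and 7 below, had a median of 0.03 and no gene with an unadjusted p of at most 0.05. The 4 genes that act in receptor shedding, among them Adam10 and Adam17, had log2 fold changes of -0.23 to 0.05.

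Of 28 genes known as STAT3 targets, 27 passed the filter, 13 were above 0 and 14 below, and the median log2 fold change was -0.01. None passed the threshold, and before adjustment 3 of the 27 had a p of at most 0.05, Irf1, Il4ra and Lrg1, or 11.1% beside 4.82% of all genes. In the blocked fit 2 of the 27 had, or 7.41% beside 4.65%, and Lrg1 was no longer among them, with an unadjusted p of 0.127. Irf1, a transcription factor gene also known as an interferon target, had 51.5, 54.9, 49.2, 64.9 and 46.1 CPM in DMSO 1 to 5 and 92.1, 63.0, 67.0, 72.9 and 74.8 CPM in FICZ 1 to 5. It was higher in all 5 pairs, with FICZ 2 below DMSO 4 as the 1 overlap. Its log2 fold change was 0.47 (standard error 0.12), and the unadjusted p of 0.00205 became an adjusted p of 0.999 over all genes in edgeR's test. In edgeR's blocked fit the adjusted p was 0.735, and in DESeq2 it was 0.316 without the block and 0.125 with it.

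Il4ra, a receptor subunit for IL-4 and IL-13, had 107, 89.3, 105, 82.7 and 78.1 CPM in DMSO 1 to 5 and 120, 113, 108, 116 and 113 CPM in FICZ 1 to 5. The groups did not overlap (exact permutation p = 0.00794), as for 0.47% of all genes, and Il4ra was named by the same rule as Jak1. Its log2 fold change was 0.30 (standard error 0.10), with an adjusted p of 0.999 from edgeR. Lrg1, which encodes a secreted glycoprotein also made by the liver, had 14.7, 5.30, 5.24, 12.5 and 31.8 CPM in DMSO 1 to 5 and 6.28, 7.15, 7.34, 5.78 and 6.65 CPM in FICZ 1 to 5. Its 3 highest libraries, DMSO 1, DMSO 4 and DMSO 5, were also the 3 highest in summed hepatocyte markers, with 4030, 3653 and 9879 CPM. Lrg1 had a log2 fold change of -1.07 with all libraries and -0.50 without both libraries numbered 5. Over the 27 targets the log2 fold changes ran from -1.07 for Lrg1 to 0.47 for Irf1.

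**Figure D5:**
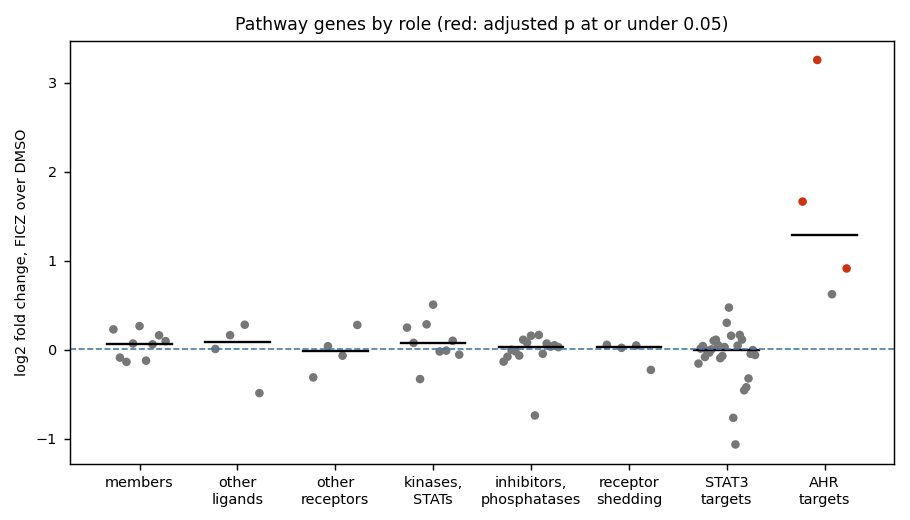
Log2 fold change, FICZ over DMSO, of each gene that passed the filter, by role, with a bar at the median of each list and a dashed line at the median of all genes tested (0.01). The medians of the 9 genes (0.07) and of the STAT3 targets (-0.01) lie near the dashed line, and the 3 red points past the threshold are AHR targets.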

How the data were processed

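The authors made 10 RNA libraries, aligned the reads to mm10 with STAR (2.7.7, per the submitters' processing notes) and deposited the raw counts of each gene symbol, not normalized. The counting program, annotation and strand setting are not given in the sources used here, so reads of genes that overlap on opposite strands cannot be told apart. All values were whole numbers. Total counts per library ranged from 38328611 to 50210111, and intervals and floors of 3 counts cover counting error only.

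All genes were fitted with edgeR 4.0.16 in R 4.3.3 (quasi-likelihood test, TMM normalization, robust dispersions, edgeR's filter by expression), with Benjamini-Hochberg adjustment over the 14251 genes tested and a threshold of 0.05. The biological coefficient of variation, shared over genes, was 0.209. Single genes were compared by an exact permutation test, two-sided, on log2 CPM (prior count 2). Both groups carry the replicate numbers 1 to 5. Deviations from the group means, correlated across genes, had an r of 0.154 to 0.317 in the 5 same-numbered pairs and of -0.395 to 0.368 (mean -0.0599) in the 20 other pairs, so a fit with the replicate number as a block was made as well. Alternatives were DESeq2 1.42.0 with and without the block, DESeq2's size factors or library size alone in edgeR, no filter on low counts, a prior count of 0.5 and leaving out libraries.

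Coordinates and exon lengths are from GENCODE M21 (GRCm38), in which 24358 of 25223 symbols were found, and promoters are from RefSeq (GRCm38.p6). The 9 genes, the gene lists and the rules were chosen with earlier results of these data known. Named genes were the 9, the AHR targets, and of the listed pathway genes those with an unadjusted p of 0.05 or less in either edgeR fit or groups that did not overlap. Osm, Il31, Clcf1, Il11ra1, Jak2, Stat2, Adam10 and Adam17 were named after their values were seen. A gene that the rule names is not reported here.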

Additional observations from a re-analysis of the deposited data

Results flagged for a closer look

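Il6st in FICZ 1 lay apart from the other 4 FICZ libraries, with 458 CPM against 569 to 609 CPM, a gap of 0.764 of the whole range of the group. DMSO 1 was also among the lowest DMSO libraries for Il6st, at 468 CPM. A gap of this size in 5 libraries is found in about 1 of 20 groups by chance, and 18 groups (9 genes in 2 treatments) were examined, of which chance would give 0.9.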

How the results depend on the processing

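No setting placed any of the 9 genes past the threshold, and the smallest adjusted p was 0.662, for Lif without DMSO replicate 3. The count over all genes was 3 in edgeR without a block, 8 with the replicate block, 16 with DESeq2 and 26 with DESeq2 and the block. It was 0 without both libraries numbered 5, and 1 to 4 when 1 library was left out, with 1 without DMSO 1, DMSO 2, FICZ 1, FICZ 2 or FICZ 3. Of the genes named, the block ended the call of Tiparp (adjusted p = 0.0509 from edgeR) and changed no other call by an adjusted p. It moved the log2 fold change of Il11 from 0.23 to 0.45 and that of Lrg1 from -1.07 to -0.75. The exact p of Il6ra was 0.0159 by permutation and 0.0625 by sign-flip of the pairs. The latter is the smallest that test can give, so the move shows no weakening. No log2 fold change of the 9 genes changed sign with another scaling, filter or tool. Without both libraries numbered 5, Il6 was 0.10, Il6st -0.0035 and Socs3 -0.0076. With 1 library left out, the log2 fold change ranged from -0.23 to 0.05 for Il6, -0.029 to 0.70 for Il11, -0.22 to 0.017 for Lifr and -0.017 to 0.13 for Osmr. It ranged from 0.09 to 0.50 for Lif, 0.05 to 0.15 for Stat3, 0.036 to 0.27 for Socs3 and -0.17 to -0.11 for Il6ra, with no change of sign. The causes were not tested. Depth limits Il6 most, at 32 to 78 counts per library.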

Other observations

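Over the 10 libraries, the genes whose log2 CPM, centred on each group's mean, ran most like that of Il6 were Osgin2 (Pearson r = 0.965), Ccl7, a chemokine gene (r = 0.965), and Slc33a1 (r = 0.931). For Socs3 they were Pik3r2 (r = 0.977), Ephb6 (r = 0.970) and Iqce (r = 0.966). These are the highest values among 14251 genes over few libraries, given as a description.

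Stat2, which acts downstream of interferon receptors, had the largest positive log2 fold change of the kinases and STATs. It had 39.4, 53.5, 41.2, 76.9 and 71.2 CPM in DMSO 1 to 5 and 107, 43.7, 86.8, 82.9 and 80.0 CPM in FICZ 1 to 5. FICZ was higher in 4 of 5 pairs, and the groups overlapped. Its log2 fold change was 0.50 (standard error 0.24, 95% interval -0.03 to 1.04), with an adjusted p of 0.999 from edgeR.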
